A study of Mus musculus with 2 samples.

Results

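The genes described here are the splicing regulators of the mouse embryo: the heterogeneous nuclear ribonucleoproteins (hnRNPs), the serine- and arginine-rich (SR) and Tra2 proteins, and the Rbfox, Ptbp, Nova, Celf, Mbnl, Elavl, quaking, Khdrbs and Esrp families. They were chosen by symbol alone, as every gene of these families to which at least 1 probe set with a single gene symbol was assigned. This gave 58 genes of 18194 in all, measured by 190 of 34958 such probe sets. A probe set is a group of short oligonucleotides on the array that together report 1 transcript or a few.

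The study hybridised biotin-labelled material made from total RNA of wild-type embryos to 2 Affymetrix Mouse Genome arrays, called array 1 and array 2 here. The embryos were taken whole at E14.5 (days of gestation), as part of work on maps of gene expression in the embryo. There was 1 group with no treatment, mutant or other stage. The labels give neither the strain nor whether the RNA came from separate embryos, so the spread between the arrays may be technical only. With 1 group of 2 arrays no test between conditions was possible, and all values below are descriptions.

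Splicing regulators bind short motifs in pre-mRNA and promote or block the use of nearby splice sites, so that 1 gene can give several transcripts. SR proteins bound to exons commonly promote their inclusion, whereas hnRNPs often repress it, and both are made in nearly every cell. A smaller number of regulators is made mainly in neurons, muscle or epithelium, and these set many of the exons that are particular to such tissues.

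From textbook knowledge of where they are made, 17 of the genes were classed as tissue-specific (15 neuronal and 2 epithelial), 8 as broad but enriched in some tissues, and 33 as ubiquitous (18 hnRNPs, 11 SR or Tra2 proteins and 4 broadly made members of families with neuronal relatives). *Hnrnpa3* and *Srsf7* were not analysed here. Each gene is given by its brightest probe set, as the signal on array 1 and array 2, in arbitrary units scaled by the authors so that the trimmed mean of each array was 100. The median over all genes was 73.4 and 74.5. Oligonucleotides differ in how strongly they bind, so a signal does not measure the amount of a transcript against that of another gene, and class medians below describe brightness only. In RNA from a whole embryo, fewer cells of a type and less RNA per cell cannot be told apart.

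A gene was called above background when on each array at least 1 of its probe sets exceeded the 95th percentile of 81 probe sets for olfactory, vomeronasal and bitter taste receptors. This bound was 27.9 on array 1 and 33.8 on array 2. By this measure 56 of the 58 splicing regulators (96.6%) were above background, against 65.5% of all genes. Tissue-specific regulators were called in 15 of 17 cases (88.2%), against 33 of 33 ubiquitous ones, and all 8 broad but enriched genes were called. The 2 exceptions were *Celf6* and *Khdrbs2*, both neuronal.

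Genes with more probe sets have more chances to pass, and the splicing regulators had a median of 3 per gene, against 1 for all genes. Among genes with 1 probe set, 13 of 15 splicing regulators (86.7%) were called, against 48.6% of all such genes. With 2 or 3 probe sets 19 of 19 were called, against 79.9%, and with 4 or more 24 of 24, against 93.6%. Counted by probe set, 153 of 190 (80.5%) were above the bound on both arrays, against 55.6% of all probe sets.

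**Figure D1:**
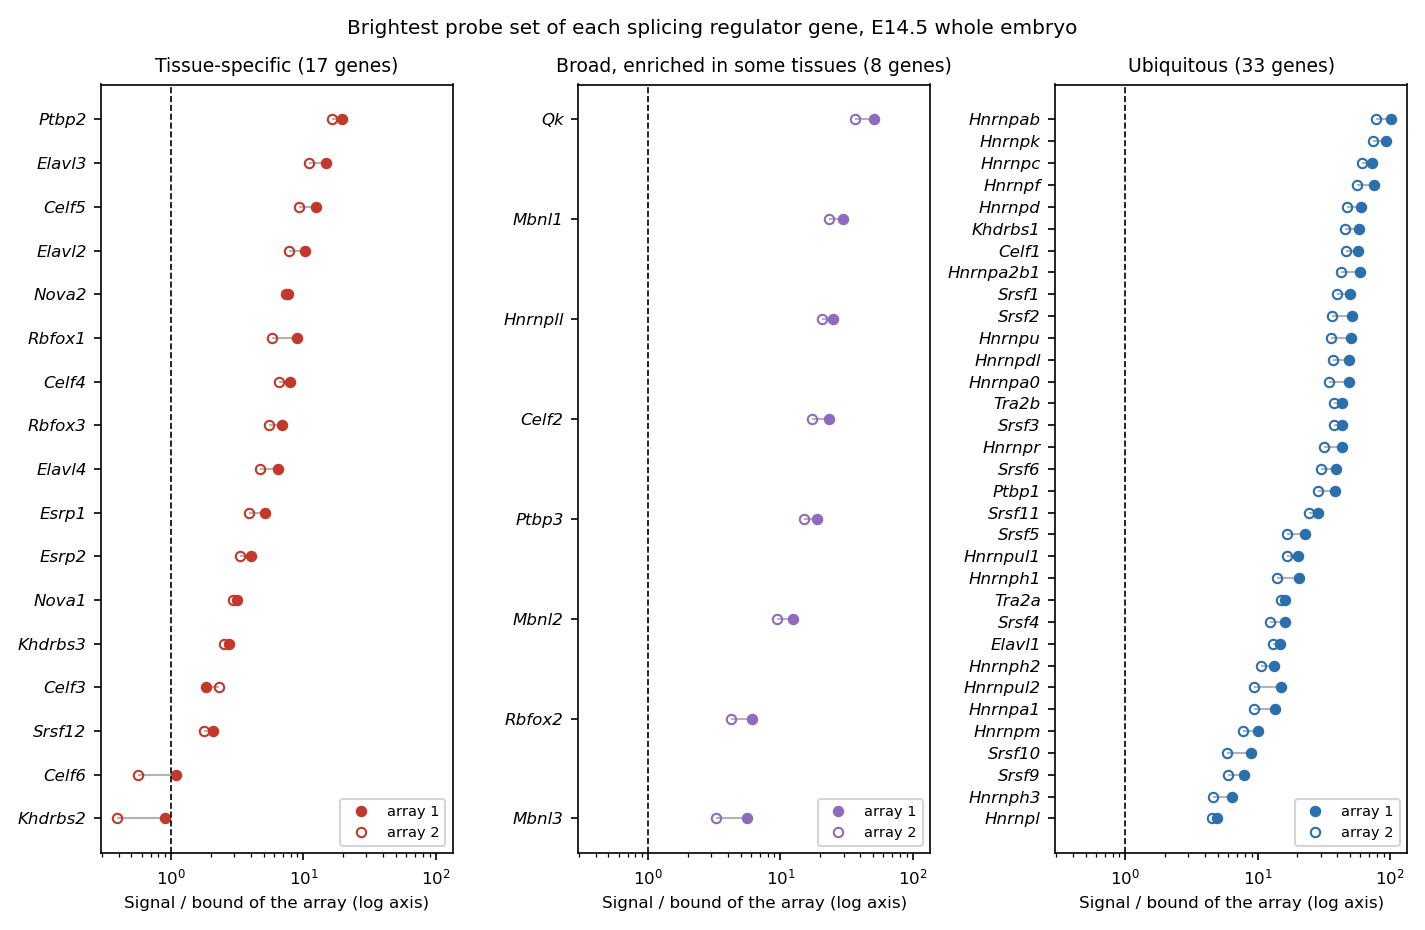
Signal of the brightest probe set of each of the 58 genes divided by the bound of its array, on a log axis, with filled points for array 1, open points for array 2 and the dashed line at the bound. Tissue-specific genes run from *Khdrbs2*, left of the line on both arrays, to *Ptbp2* at 19.6 and 16.6 times the bound. All 33 ubiquitous genes lie to the right of the line.

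Among the neuronal regulators, *Ptbp2* was the brightest. It encodes the neuronal polypyrimidine tract-binding protein, which takes over from Ptbp1 as neural progenitors become neurons. Its signal was 546 and 561. Its ubiquitous relative *Ptbp1*, a repressor of neural exons in non-neuronal cells, gave 1078 and 967 with its brightest probe set. That probe set of *Ptbp1* carries the suffix _a_at, given to probe sets that match several transcripts of 1 gene. With only plain _at probe sets, *Ptbp2* kept 546 and 561, against 218 and 188 for *Ptbp1*, so the order within this pair depended on the probe set.

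The neuronal Elavl genes encode Hu proteins, which bind U-rich RNA, stabilise mRNAs and regulate splicing in neurons. *Elavl3* gave 415 and 371, *Elavl2* 286 and 264, and *Elavl4* 178 and 158. All 3 were above the bound on both arrays. *Elavl1*, the ubiquitous member of the family and a stabiliser of AU-rich mRNAs, gave 410.2 and 438, within the same range as *Elavl3*.

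Shown here are the last 150 bases before the start of a neuronal gene and its ubiquitous relative in 2 families, since the signals of these pairs are set side by side above. They come from RefSeq (build GRCm38.p6) and are written 5′ to 3′ on the gene's strand, with each CG in capitals.
Ptbp2: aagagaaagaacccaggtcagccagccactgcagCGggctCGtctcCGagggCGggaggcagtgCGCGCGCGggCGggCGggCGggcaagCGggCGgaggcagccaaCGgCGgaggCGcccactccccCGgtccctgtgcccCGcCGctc
Ptbp1: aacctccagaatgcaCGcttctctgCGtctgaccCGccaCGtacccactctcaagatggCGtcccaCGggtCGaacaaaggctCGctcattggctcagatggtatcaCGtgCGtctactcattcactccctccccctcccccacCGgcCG
Elavl3: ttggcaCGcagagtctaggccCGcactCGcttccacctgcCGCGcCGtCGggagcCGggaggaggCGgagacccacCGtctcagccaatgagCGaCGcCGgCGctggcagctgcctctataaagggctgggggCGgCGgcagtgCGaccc
Elavl1: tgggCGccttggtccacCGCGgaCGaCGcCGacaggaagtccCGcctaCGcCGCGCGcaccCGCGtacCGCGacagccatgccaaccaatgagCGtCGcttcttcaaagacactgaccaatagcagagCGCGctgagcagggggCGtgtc
The stretches lie at chr3:119783389-119783538 (minus strand) for *Ptbp2*, chr10:79854282-79854431 (plus strand) for *Ptbp1*, chr9:22052024-22052173 (minus strand) for *Elavl3* and chr8:4325101-4325250 (minus strand) for *Elavl1*, all immediately upstream of the annotated first exon. They hold 19 CG dinucleotides in *Ptbp2*, against 12 in *Ptbp1*, and 17 in *Elavl3*, against 20 in *Elavl1*. These pairs were chosen for their signals and do not stand for their classes.

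Nova proteins bind clusters of YCAY motifs and control exons of synaptic genes. *Nova2* gave 212 and 251, and *Nova1* 88.2 and 98.6. Both genes had a further probe set far under the bound, with 2.5 and 1.0 for *Nova2* and 1.4 and 4.8 for *Nova1*.

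Rbfox proteins bind UGCAUG next to regulated exons. *Rbfox1*, made in neurons and in striated muscle, gave 250.2 and 196. *Rbfox3*, the antigen NeuN of differentiated neurons, gave 194 and 186. *Rbfox2*, the most widely made of the family, was classed as broad but enriched and gave 169 and 142. These brightest probe sets of the 3 genes were well above the bound, but each gene also had a probe set near or below it. That of *Rbfox1* gave 31.7 and 36.9, just over the bound. That of *Rbfox3*, with 22.4 and 24.3, was below it on both arrays. That of *Rbfox2* was also below it on both arrays, with 25.8 on array 1. The remaining probe sets of the 3 genes were above the bound on both arrays.

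The Celf family binds GU-rich RNA, and its members 3 to 6 are made mainly in the nervous system. *Celf5* gave 350.2 and 314, *Celf4* 221 on both arrays, and *Celf3* 51.0 and 77.2. *Celf6*, with 30.3 on array 1 and 19.0 on array 2, passed the bound on array 1 only. The 4 neuronal genes therefore ran from among the brightest of their class to background. The widely made *Celf1* was far brighter, at 1593 and 1571, and *Celf2*, enriched in brain, heart and muscle, gave 647 and 585.

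Khdrbs proteins are STAR-family RNA-binding proteins. *Khdrbs3* (SLM2), which controls neurexin exons in the brain, gave 76.6 and 84.5. *Khdrbs2* (SLM1), with 25.2 and 13.2, was below the bound on both arrays, and its only probe set carries the suffix _s_at, given to probe sets that match transcripts of different genes. *Khdrbs1* (Sam68), their ubiquitous relative, gave 1638 and 1556. *Srsf12*, an SR protein with a restricted pattern, was measured at 57.5 and 59.9, and like *Celf3* lay near the bound: these were the only called members whose brightest probe set was under 2 times the bound on an array.

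The epithelial regulators *Esrp1* and *Esrp2* switch exons of genes such as *Fgfr2* to their epithelial forms. *Esrp1* gave 144 and 131 and *Esrp2* 112 and 111. Both were above background on both arrays.

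Marker genes were checked for neurons, epithelium and skeletal muscle, and each of these was represented in the RNA. Other sites where some of the regulators are made, such as heart for *Celf2*, were not checked. Of all genes, 65.5% were called. All 8 neuron markers were called, among them *Tubb3* with 471 and 506 and *Stmn2* with 937 and 821, and their summed signal was 3613 on array 1 and 3359 on array 2. All 8 epithelium markers were called as well, *Epcam* at 76.0 and 63.3 and *Cdh1* at 697 and 641. The 8 skeletal muscle markers were all called, with *Myh3*, an embryonic myosin, at 1718 and 1758 and *Acta1* at 2543 and 2330.3.

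Of the broad but enriched genes, *Qk* was the brightest at 1429 and 1246. It encodes quaking, a STAR protein best known for its part in myelination. *Mbnl1*, *Mbnl2* and *Mbnl3* encode muscleblind proteins, which are sequestered by expanded CUG repeats in myotonic dystrophy. *Mbnl1* gave 835 and 782, *Mbnl2* 349.5 and 319, and *Mbnl3* 156 and 109. *Hnrnpll*, a regulator of CD45 splicing in lymphocytes, gave 697 and 694, and *Ptbp3*, a relative of Ptbp1 first described in haematopoietic cells, 526 and 505. Every gene of this class exceeded the bound on both arrays by more than 3 times.

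The 18 hnRNPs had medians of 1284 and 1117. *Hnrnpab*, an RNA-binding protein of the A/B type, gave 2849 and 2679, and *Hnrnpk*, which binds C-rich sequences, 2611 and 2522. *Hnrnpc*, which binds U-tracts, gave 2062 and 2069, and *Hnrnpf*, which binds G-tracts, 2104 and 1914. The lowest were *Hnrnpl*, which binds CA-rich RNA, at 138 and 154, *Hnrnph3* at 177 and 157, *Hnrnpm* at 282 and 260.2, and *Hnrnpa1*, the classic antagonist of SR proteins, at 379.8 and 317. The other 10 lay between 373 and 1675 on array 1 and between 316 and 1614 on array 2, and all 18 hnRNPs were called.

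The 11 SR and Tra2 genes had medians of 803 and 822. *Srsf1* (SF2/ASF), the founding member, gave 1406 and 1339.7, *Srsf2* (SC35) 1451 and 1228, *Srsf3* 1204 and 1271, and *Tra2b*, an activator of AGAA-rich exons, 1206 and 1282. The lowest were *Srsf9* at 219 and 202, *Srsf10* at 249 and 199, *Srsf4* at 446 and 422, and *Tra2a* at 453 and 505. Even these exceeded the bound on both arrays by more than 5 times, and the other 3 (*Srsf5*, *Srsf6* and *Srsf11*) lay between 641 and 1096 on array 1 and between 563 and 1013 on array 2.

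Set side by side, the tissue-specific regulators had median signals of 178 and 158, against 1096 and 1013 for the ubiquitous ones. Relative to the bound this was a median of 5.46 times for tissue-specific and 34.3 times for ubiquitous genes, a difference of −2.65 on the log2 scale. The broad but enriched genes lay between, at 18.3 times, and all genes of the array had a median of 2.39 times the bound. The classes overlapped: *Ptbp2*, the brightest tissue-specific gene, exceeded 11 of 33 ubiquitous genes on array 1 and 12 on array 2. On the other side, 10 and 9 of the 17 tissue-specific genes exceeded *Hnrnpl*, the dimmest ubiquitous gene. None reached the ubiquitous median, with each gene given by its brightest probe set of any suffix.

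The kind of probe set differed between the classes and moved with this difference. The brightest probe set carried a suffix letter (_a_at, _s_at or _x_at, the last given where some oligonucleotides resemble other sequences) in 4 of 17 tissue-specific genes, against 18 of 33 ubiquitous genes. Over all their probe sets, the splicing regulators' 40 _a_at probe sets had median signals of 569 and 554, and their 118 plain _at probe sets 99.3 and 97.3. When only plain _at probe sets were used, the median was 6.05 times the bound for 15 tissue-specific genes, against 11.0 times for 31 ubiquitous genes. The difference shrank to −0.86 on the log2 scale. The ubiquitous medians were then 357 and 317.5, which *Ptbp2* (546 and 561) and *Elavl3* (415 and 371) exceeded on both arrays. Under that choice the ubiquitous *Hnrnpa1* was no longer above the bound on either array, with 19.2 on array 2, and *Hnrnpr* (28.7 and 32.2 with its brightest plain probe set) passed on array 2 only through another probe set. How far the kind of probe set accounts for the difference between the classes was not tested.

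**Figure D2:**
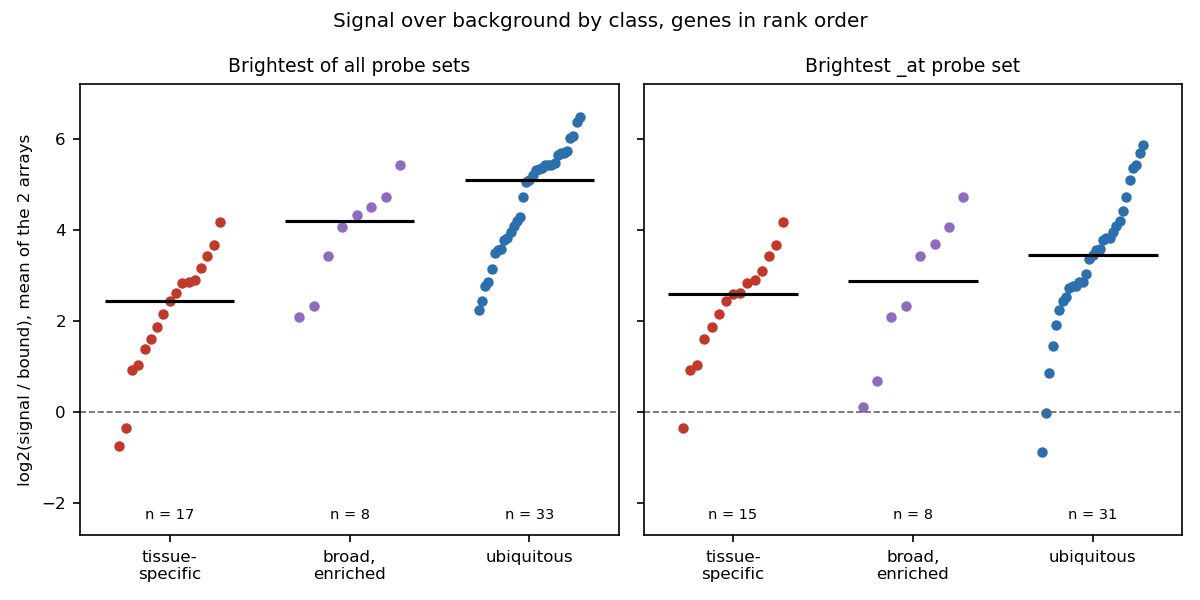
Signal over the bound of each gene (log2, mean of both arrays) by class, with genes in rank order, the black line at the class median and the dashed line at the bound, for the brightest of all probe sets (left) and the brightest plain _at probe set (right). The medians of the tissue-specific and ubiquitous genes differ by −2.65 on the left and by −0.86 on the right.

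The number of probe sets also differed, with a median of 2 for tissue-specific and 4 for ubiquitous genes. Among genes with 1 probe set, 7 tissue-specific genes had a median of 2.04 times the bound, against 13.0 times for 8 ubiquitous genes. With 2 or 3 probe sets the medians were 6.67 times for 8 tissue-specific genes, against 17.1 times for 7 ubiquitous genes. With 4 or more, *Elavl2* and *Rbfox1* had a median of 8.03 times, against 42.9 times for 18 ubiquitous genes. The tissue-specific median was thus the lower one in each of these groups. The groups were small and not matched for the suffix of the brightest probe set. The part of the number of probe sets in the difference between the classes was not tested.

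Probe sets of the same gene often disagreed. Of the 43 splicing regulators with at least 2 probe sets, 24 had a probe set that was not above the bound on both arrays, and a ratio to such a signal has no exact size. Signals under the bound were therefore set to the bound, which makes the ratio of brightest to dimmest a lower limit in these genes. On this scale the median ratio was 11.0-fold, against 2.68-fold over 9012 genes of the array with at least 2 probe sets. At each number of probe sets from 2 to 7 the median was higher for the splicing regulators than for all genes, for example 6.51-fold against 4.74-fold at 4 probe sets and 43.9-fold against 11.9-fold at 7. On this scale a ratio is limited by how far the brightest signal lies over the bound. The splicing regulators were brighter, with a median of 14.8 times the bound, against 2.39 times for all genes. The part of brightness in the wider ratios was not tested. With the deposited signals unchanged, the order was the reverse at 4 probe sets, with 6.51-fold against 13.7-fold. It was the same at 2, 3, 5, 6 and 7 probe sets.

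The ratio was over 50-fold in 5 of the 43, against 1.12% of all such genes. It was 67.1-fold in *Hnrnpab*, whose probe sets were all above the bound, and at least 67.0-fold in *Hnrnpc*, 53.3-fold in *Hnrnpd*, 51.8-fold in *Khdrbs1* and 51.3-fold in *Celf1*. With the deposited signals unchanged it was over 50-fold in 13, against 11.3% of all such genes. The further 8 were *Celf2*, *Srsf1*, *Qk*, *Tra2b*, *Nova2*, *Mbnl1*, *Srsf3* and *Tra2a*, each with a dimmest probe set that was not above the bound. With signals set to the bound, only genes brighter than 50 times the bound can pass, which favours bright genes. Neither share was matched for the number of probe sets. With the deposited signals the median ratio over all genes was 3.26-fold at 2 probe sets and 39.2-fold at 7.

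The brightest probe set of *Khdrbs1* gave 1638 and 1556, and its dimmest, at 2.8 and 2.9, was at background on both arrays. *Celf2* had 3 _a_at probe sets between 484.5 and 647, whereas its 4 plain _at probe sets gave at most 36.3. *Srsf1* had 6 of 7 probe sets above the bound and 1 at 2.3 and 4.8. For *Qk* even probe sets of the same kind differed, since 1 of its _a_at probe sets gave 1429 and 1246 and another 10.1 and 2.9, under the bound. The part of the transcript that each probe set reports was not analysed here.

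**Figure D3:**
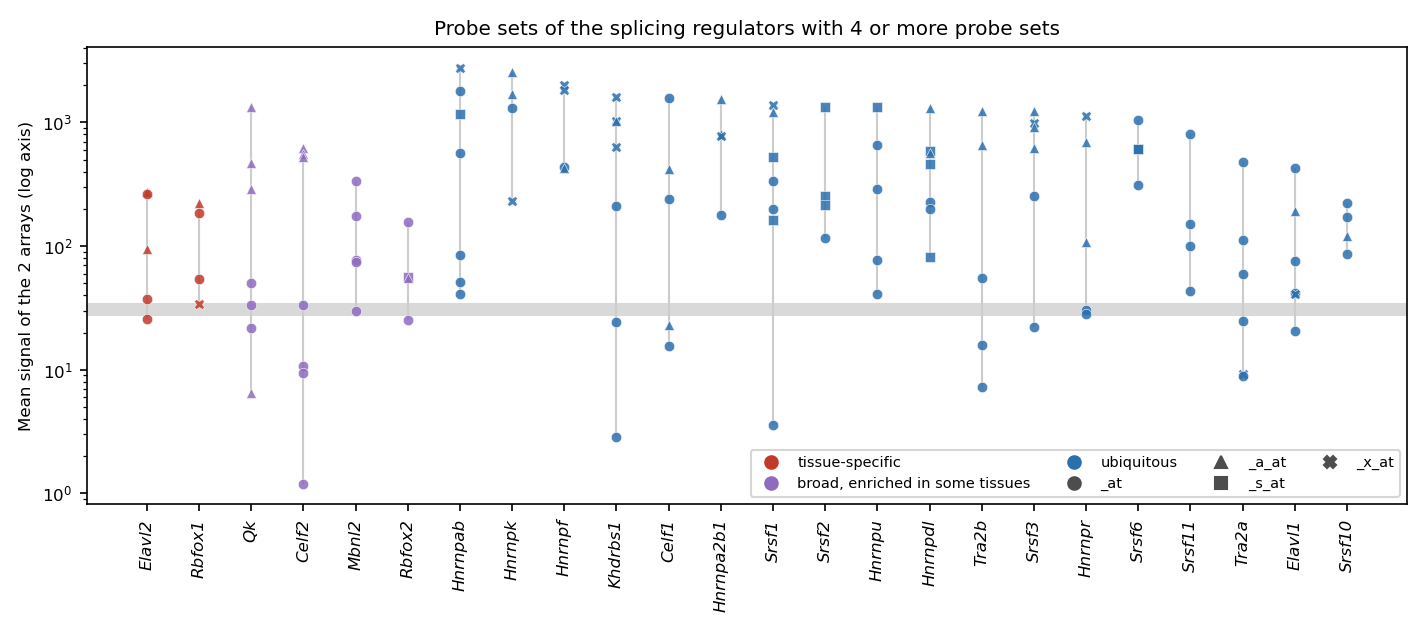
Mean signal of every probe set (log axis) of the splicing regulators with 4 or more probe sets, coloured by class and shaped by suffix, with the grey band between the bounds of 27.9 and 33.8. *Khdrbs1*, *Celf2* and *Srsf1* each have probe sets far above the band and at least 1 far below it, where signals are background.

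Between the arrays, the splicing regulators repeated about as closely as all genes, which were not matched to them for brightness. Differences are given on the log2 scale as array 2 minus array 1, centred on the median of all probe sets above both bounds. Of the 153 probe sets above the bound on both arrays, 5 (3.27%) differed by more than 1.5-fold, against 3.22% of all such probe sets, and 0 differed by more than 2-fold. The SD of the difference was 0.23, against 0.25 over all probe sets with a single symbol. On array 2, 3 were higher (the background was 1.97%) and 2 lower (1.26%).

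The 2 lower probe sets belonged to neuronal genes with a brighter probe set that did not pass 1.5-fold. They were the second probe set of *Elavl3*, with 182 and 101, and that of *Ptbp2*, with 97.0 and 57.8. The 3 higher ones were a probe set of *Mbnl2* with 53.9 and 94.0, 1 of *Tra2a* with 45.4 and 74.6, and the only probe set of *Celf3*. All 5 had signals of 182 or less on both arrays, in the lower part of the range.

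**Figure D4:**
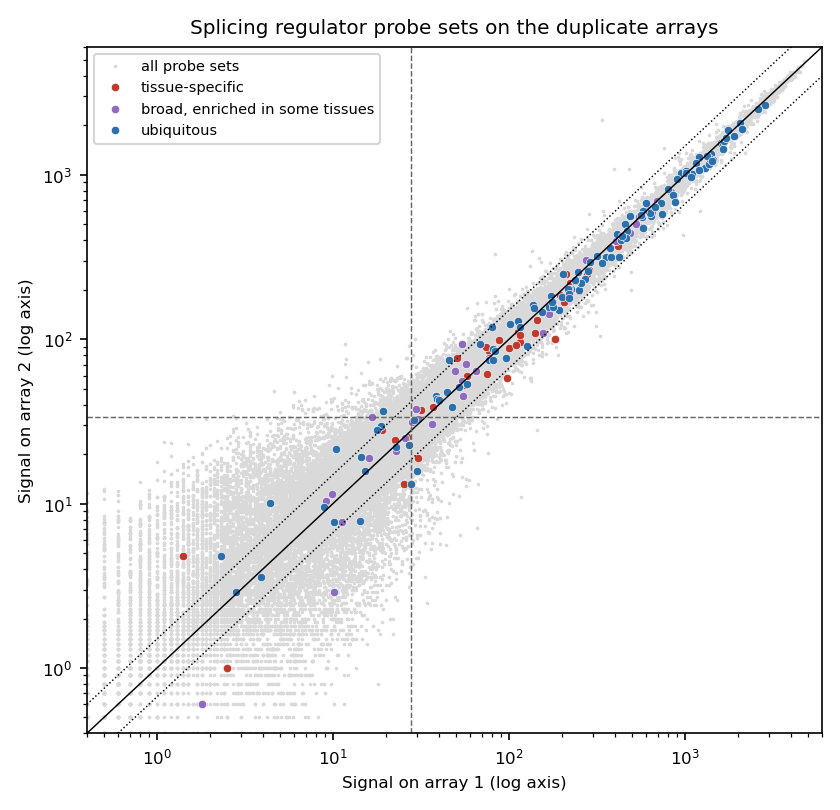
Signal on array 1 (horizontal) and array 2 (vertical), both on log axes, of all probe sets (grey) and of those of the splicing regulators by class, with dashed lines at the bounds, the solid line at equality and dotted lines at 1.5-fold. Of the 153 splicing regulator probe sets above both bounds, 5 lie more than 1.5-fold apart after centring.

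By gene, 43 of the 56 called splicing regulators were lower on array 2 (76.8%), against 53.7% of all genes whose brightest probe set passed on both arrays, with a median difference of −0.11 for the splicing regulators and −0.02 for all genes. It held for 9 of 15 tissue-specific, 8 of 8 broad but enriched and 26 of 33 ubiquitous genes. The 5 genes furthest down on array 2 were *Mbnl3* (−0.53), *Hnrnpul2* (−0.42, with 420.1 and 316), *Rbfox1* (−0.36), *Srsf10* (−0.34) and *Hnrnph1* (−0.28, with 576 and 478). The 5 furthest up were *Celf3* (0.59), *Nova2* (0.23), *Nova1* (0.15), *Tra2a* (0.14) and *Hnrnpl* (0.14). Neuron markers were lower on array 2 by a median of 0.17, with 6 of 8 lower, whereas neuronal regulators had a median difference of −0.01, with 7 of 13 lower. The other marker lists were lower as well. The median difference was −0.14 for skeletal muscle markers, with 7 of 8 lower, and −0.08 for epithelium markers, with 6 of 8 lower. The part of sample composition in these differences was not tested.

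Other components of splicing, from lists of known factors, were likewise mostly above background, against 65.5% of all genes. The share of all genes called was 48.6% with 1 probe set, 79.9% with 2 or 3 and 93.6% with 4 or more. The lists were not matched for this number. All 9 core snRNP proteins measured of 12 names were called, with *Snrpa1* at 712 and 848 and *Snrpb*, part of the Sm ring, at 1617 and 1723. All 19 U2, tri-snRNP and Prp19 complex factors were called, including the U2AF subunits that recognise the 3′ splice site, *U2af1* at 377 and 350.4 and *U2af2* at 544 and 549.7. Of 20 other broad RNA-binding regulators, 18 were measured and 18 called, among them *Ewsr1* at 400.0 and 359 and *Taf15* at 62.2 and 91.8.

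The kinases that phosphorylate SR proteins were called in 6 of 7 cases. *Srpk1* gave 272 and 245 and *Srpk2* 347 and 338, while *Clk4*, with 26.1 and 33.0, was below the bound on both arrays. Of 9 other tissue-specific regulators 7 were called (77.8%), against 65.5% of all genes and 79.9% of those with 2 or 3 probe sets. *Srrm4*, the neuronal activator of microexons, was low but called at 42.1 and 55.9. Its relative *Srrm3*, at 35.2 and 33.1, passed on array 1 only. *Snrpn*, the neuronal relative of *Snrpb*, stayed under the bound at 12.9 and 18.0. It was read from 1 probe set only, and probe sets with several symbols were not used, so its absence cannot be concluded.

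DNA before the start site was read for the 49 of 58 splicing regulators with an entry in the RefSeq promoter table (build GRCm38.p6), as the 250 bases before the start site that lies farthest upstream. The number of CG dinucleotides, which are depleted from the genome outside CpG islands, had a median of 19 for the splicing regulators, against 13 for the 14453 genes of the array with an entry. The quartiles of the counts ran between 14 and 29 for the splicing regulators and between 5 and 21 for the genes of the array. Of the 49, 31 were ubiquitous genes. The 2 sets were not matched for the share above background, which was 96.6% for the 58 splicing regulators, against 65.5% of all genes. The classes were not compared, since genes without an entry were spread unequally over them. An entry was found for 13 of 17 tissue-specific (76.5%), 5 of 8 broad but enriched and 31 of 33 ubiquitous genes. Over all genes of the array the share was 79.4%. The 13 tissue-specific counts lay between 2 and 23. *Rbfox1* with 2, *Rbfox3* with 3 and *Celf3* with 4 were at the low end, and *Ptbp2* with 23 was at the high end. Low counts were not confined to this class. The lowest of the 49 was 1, for the broad but enriched *Mbnl1*, and the lowest ubiquitous gene was *Hnrnpf* with 6. Only the start site farthest upstream was counted, of 7 for *Celf3*, 4 for *Hnrnpf*, and 2 each for *Rbfox1* and *Mbnl1*. The letters TATAAA, searched on the gene's own strand within the last 50 bases, occurred in 3 of the 49 (6.12%), *Elavl3* (within the stretch printed above), *Srsf2* and *Srsf3*, against 2.98% of the genes of the array.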

How the data were processed

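The 2 arrays measured total RNA of wild-type embryos of stage E14.5. The values used are the signal intensities deposited by the authors, 1 per probe set and array; per the submitters' processing notes they were made with GCOS 1.3, and the mean of each array after trimming 2% from either end was 100.0. All 45101 probe sets were read, and the 34958 with a single symbol in the platform annotation were used. Of the rest, 7 with several symbols included a splicing regulator and were left out. No depth applies to arrays, and their number limits the precision.

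The brightest probe set by mean signal stood for a gene. Differences between arrays were log2 ratios of probe sets above both bounds. Scripts used Python 3.11.15, pandas 2.3.3, numpy 2.4.6 and statsmodels 0.14.6, and were tested on simulated data. Alternatives were other bounds, probe set choices, classes, normalizations and each array alone. The text names all tissue-specific and broad but enriched genes, the 4 brightest and 4 dimmest ubiquitous genes of each role, the 5 largest array differences each way, genes with a range over 50-fold, and of other lists the first 2 and those below the bound. Other genes named were chosen after their values were seen. Genes, classes and lists were chosen with earlier results of these data known.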

Additional observations from a re-analysis of the deposited data

How the results depend on the processing

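The count of 56 splicing regulators above background was 51 (of 54) with plain _at probe sets only and 57 with array 1 alone. Of the 54 genes with a plain probe set, 50 were called when 1 such probe set had to pass on both arrays (*Hnrnpr* then failed). With each gene given by the median of its probe sets, 54 of 58 were called, and *Celf2* and *Mbnl1*, both broad but enriched, were lost. The difference in the share called, tissue-specific minus ubiquitous, was −11.8 percentage points. It was −6.25 without _s_at and _x_at probe sets, −3.44 with plain _at probe sets only, −0.22 when 1 of these had to pass on both arrays (14 of 15 tissue-specific, 29 of 31 ubiquitous), and between −11.8 and −5.88 with 1 array left out, where *Celf6* passed on array 1 alone. The difference in median log2 signal over the bound, −2.65, was −1.89 without _s_at and _x_at probe sets, −0.86 with plain _at probe sets only, −1.64 with the median of each gene's probe sets, −2.27 with broad genes counted as ubiquitous and −2.25 with them counted as tissue-specific, and lay between −2.68 and −2.62 with 1 array left out. The count of genes whose probe sets spanned over 50-fold was 13, and 5 when values under the bound were set to the bound, which shortens every range that ends in background. The median difference between the arrays stayed between −0.14 and −0.08. The median CG count of 19 was 22 at the start site with the most, and this alternative and the combined rule on plain probe sets were chosen after seeing the data. No difference between the classes or between the arrays changed sign. No paired analysis was possible because there was 1 group. With 2 arrays of unstated origin, no biological spread can be given.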
